A study of Mus musculus with 8 samples.

Results

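The kidney cortex of wild-type mice was described gene by gene from 4 arrays, called WT 1 to WT 4 after their titles. These 4 arrays make up 4 of the 8 samples of a study of SPAK, a kinase encoded by Stk39 that acts on salt transporters of the distal nephron, and they are its littermate controls. The mice were male C57Bl6J animals aged 10 weeks, of the genotype littermate wild type, with free access to water and to feed that held 0.32% NaCl and 1% KCl. The cortex was cut from the rest of the kidney, total RNA was extracted with Trizol, and 6 µg of it was labelled per array. The labels name 4 mice and give neither the time of day of collection nor the feeding state at that time. Every probe set annotated with exactly 1 gene symbol was considered, and each gene was read from its probe set of highest WT mean, which gave 19938 genes. Values are log2 expression values, in which a difference of 1 is a 2-fold difference in array signal. A gene with a WT mean above 8 is called bright, and 6225 genes, or 31.2% of those measured, were bright.

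The cortex holds the glomeruli, in which podocytes and a special endothelium filter the blood, and the convoluted tubules that recover most of the filtrate. The proximal tubule, its main cell type by volume, reabsorbs sodium, phosphate, glucose, amino acids and filtered protein, makes glucose and ammonia, and runs largely on the mitochondrial oxidation of fatty acids and other fuels. The thick ascending limb, the distal convoluted tubule and the collecting system then adjust salt, calcium, water and acid. In such bulk tissue, fewer cells of a type and less RNA per cell cannot be told apart.

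The arrays were compared in pairs before any averaging. After the median difference was removed, WT 2 and WT 3 differed by more than 0.4 in 4 of the 6225 bright genes, while the other 5 pairs differed in 107 to 212. The SD of the differences was 0.0859 between WT 2 and WT 3 and 0.147 to 0.191 in the other pairs. The labels describe WT 2 and WT 3 as separate mice, but they were averaged and counted as 1 sample in every mean ± SD, so that n = 3. The array medians over all probe sets lay between 6.13 and 6.19, and the median gene had a level of 6.73. A level is an array signal: probe sets bind with different strength and no detection call was used here, so the order of genes is an order of signal and not of transcript number.

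The labels were checked against marker genes. Stk39 gave 8.36, 8.51, 8.60 and 8.11 on WT 1 to WT 4. Xist, which is transcribed from the inactive X of female cells, gave 3.84, 3.75, 3.94 and 3.77, while the Y-linked Eif2s3y gave 9.24, 9.11, 9.18 and 9.36 and the Y-linked Uty gave 9.06, 9.03, 9.08 and 9.21. Kdm5d, also Y-linked, was lower and not bright, at 7.77, 7.45, 7.41 and 7.57. Kap, an androgen-regulated gene of the proximal tubule, was among the 5 highest signals at 13.70 ± 0.03 (SD, n = 3). Of 13 genes known to be higher in male mouse kidney, 12 were bright, with a list median of 11.83. Of 4 measured genes known to be higher in female kidney, 0 were bright, with a median of 6.71. The sex on the labels thus had its markers on all 4 arrays.

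The highest signals included genes of proximal tubule transport and metabolism, mitochondria and housekeeping. Of the 40 genes with the highest WT mean, 22 were members of the marker, function and response lists. Of the 279 genes above 12, 86 were. These lists also hold reference, ribosome and stress genes, and the share of all genes on them was not computed. Of the 15 markers of the proximal tubule as a whole, 4 were in the top 40 and 13 above 12. Slc34a1, the sodium-phosphate cotransporter of the proximal brush border, gave 13.78, 13.76, 13.78 and 13.83. Gpx3, the secreted glutathione peroxidase that the proximal tubule releases into plasma, gave 13.64, 13.67, 13.77 and 13.76. Fbp1, the fructose bisphosphatase of gluconeogenesis, gave 13.53, 13.64, 13.67 and 13.67. For these 3 genes the arrays lay within 0.06 to 0.13 of one another. Miox, which opens the inositol ring and is largely restricted to kidney, averaged 13.43, and Gatm, the first enzyme of creatine synthesis, averaged 13.38 ± 0.02. Other members of the top 40 were Slc27a2 (13.33 ± 0.04), which activates very long fatty acids, Acy3 (13.50 ± 0.03), a deacylase of acylated amino acids, Cat (13.16 ± 0.01), the peroxisomal catalase, and Slc22a2 (13.09 ± 0.02), a transporter that takes up organic cations from blood.

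Genes of general cell function stood beside these. Atp5b and Atp5d, subunits of the mitochondrial ATP synthase, averaged 13.59 ± 0.03 and 13.56 ± 0.02. Fth1, the ferritin heavy chain, averaged 13.58 ± 0.03, and Actb, the cytoplasmic beta actin, averaged 13.54 ± 0.02. The symbols COX2 and ND3, which in this annotation name subunits encoded in the mitochondrial genome, averaged 13.42 ± 0.03 and 13.16 ± 0.06. Igfbp7, a secreted binding protein of insulin-like growth factors, averaged 13.69 ± 0.03, Timp3, an inhibitor of matrix proteases, 13.18 ± 0.08, and Guca2b, the peptide hormone uroguanylin, 13.26 ± 0.09. The ranges of the top 40 between arrays ran from 0.02 to 0.26, and 39 of the 40 were under 0.2.

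The single highest signal was unclear in its source. It carried the symbol Baiap2l1, a membrane-bending adaptor protein, and averaged 13.99 ± 0.01, but the annotation of that probe set also lists ribosomal RNA records. Of the other 2 probe sets of the same symbol, the one that lists its mRNA alone gave 8.86, 8.61, 8.61 and 8.82. Baiap2l1 is therefore not counted among the cortical functions described here. Small RNA genes such as Rn7sk and Rny3 also reached the top 40 and were counted but not described.

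Median signals of the nephron marker lists differed between segments, but the levels of their members overlapped. Late proximal markers ran from 9.35 to 12.65, for example, and those of the thick ascending limb from 7.46 to 12.96. Over all genes the share of bright ones was 31.2%. All 15 markers of the proximal tubule as a whole were bright, with a median of 12.60 and a lowest value of 11.15. The 7 markers of the early proximal tubule and the 7 measured markers of the late proximal tubule were all bright too, with medians of 11.76 and 11.99. Lrp2, the endocytic receptor megalin, averaged 12.62 ± 0.04. Slc5a12, a lactate transporter of the early segment, averaged 12.74 ± 0.07, and Slc7a13, an amino acid transporter of the late segment that is higher in males, averaged 12.69 ± 0.14. Between arrays the summed picture was steady: the mean over the 15 proximal markers was 12.61, 12.60, 12.60 and 12.63 on WT 1 to WT 4.

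**Figure D1:**
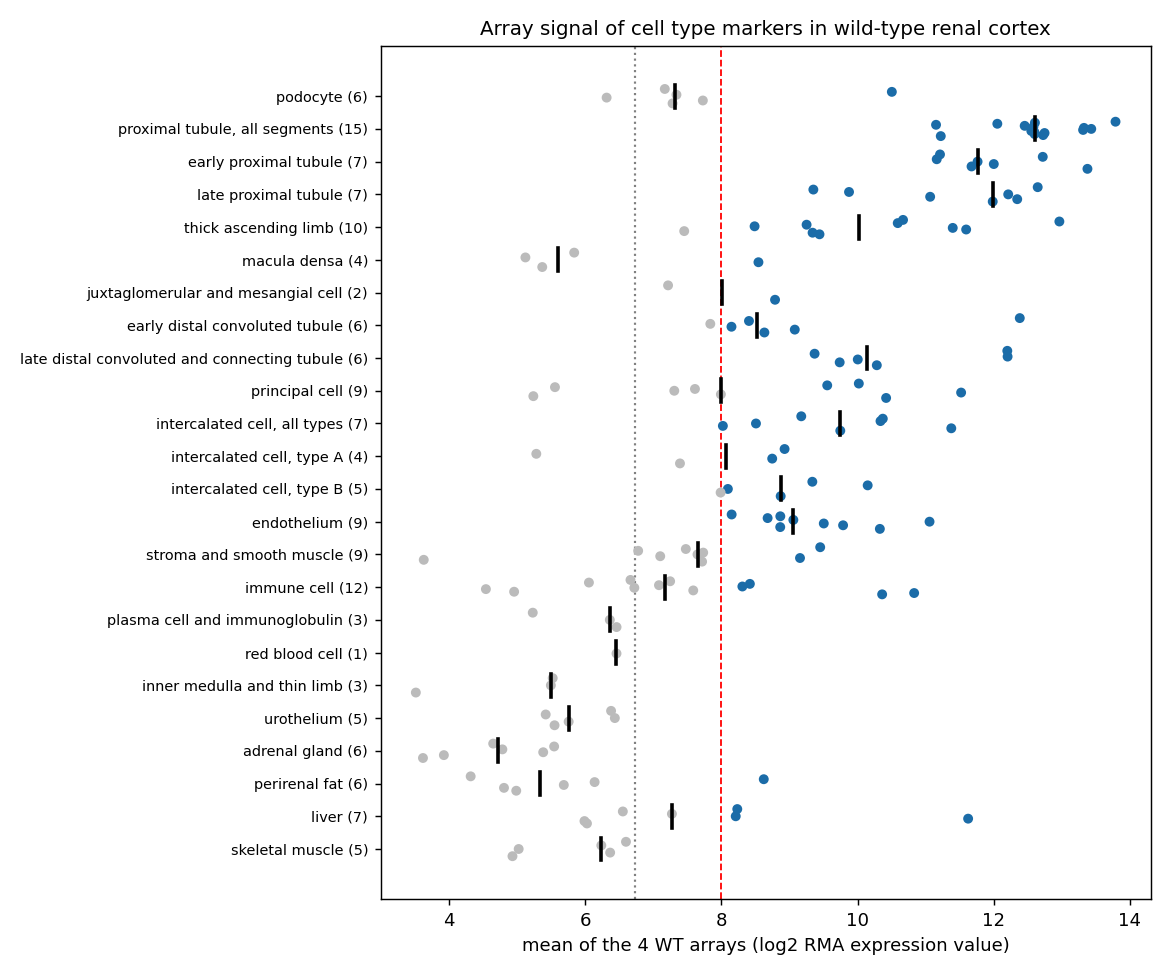
Each point is 1 marker gene, placed by its mean log2 RMA expression value over the 4 WT arrays; rows are marker lists with the number of genes measured in brackets, blue points are bright, the black bar is the list median, the red line is at 8 and the dotted line at the median of all genes (6.73). All proximal tubule, intercalated cell (all types) and endothelial markers lie above 8, while inner medulla, urothelium, adrenal and muscle markers lie below it.

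Beyond the proximal tubule, 9 of 10 markers of the thick ascending limb were bright, with a median of 10.02, beside 31.2% of all genes. Umod, the uromodulin that this segment secretes into urine, averaged 12.96 ± 0.02, Egf, the precursor of epidermal growth factor, 11.63 ± 0.13, and Slc12a1, the apical sodium-potassium-chloride cotransporter, 10.68 ± 0.09. In the early distal convoluted tubule, 5 of 6 markers were bright. Slc12a3, the thiazide-sensitive cotransporter on which SPAK acts, gave 12.32, 12.38, 12.35 and 12.49 on the 4 arrays. The other members of that list were lower, among them Klhl3, a ubiquitin ligase adaptor, at 9.08 ± 0.15 and Wnk4, the kinase upstream of SPAK, at 8.64 ± 0.17. All 6 measured markers of the late distal and connecting tubule were bright, led by the calcium-binding proteins S100g (12.22 ± 0.12) and Calb1 (12.15 ± 0.18).

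In the collecting system, 4 of 9 principal cell markers were bright, where the share over all genes was 31.2%. Hsd11b2, which shields the mineralocorticoid receptor from glucocorticoids, averaged 11.53 ± 0.10, Scnn1a, a subunit of the epithelial sodium channel, 10.42 ± 0.14, and Aqp2, the vasopressin-regulated water channel, 9.99 ± 0.11. All 7 general intercalated cell markers were bright, with Atp6v0a4, a subunit of the proton pump, at 11.37 ± 0.04. Type B intercalated cells were represented by Slc4a9, a basolateral anion exchanger (10.22 ± 0.26), and Slc26a4, the apical chloride-bicarbonate exchanger pendrin (9.37 ± 0.20), with 4 of 5 markers bright. Of the type A markers 2 of 4 were bright, Slc4a1 at 8.85 ± 0.27 and Aqp6 at 8.68 ± 0.36. Macula densa cells, which sense luminal chloride, had 1 of 4 markers bright, Ptges at 8.58 ± 0.11, with Nos1 and Ptgs2 at 5.86 and 5.08. In these short lists the shares were 44.4% for principal cell, 50% for type A and 25% for macula densa markers, not far from that over all genes.

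Podocyte, immune and stromal markers had list medians of 7.31, 7.17 and 7.65, beside 6.73 over all genes, of which 31.2% were bright. Of 6 measured podocyte markers, 1 was bright: Podxl, a surface sialomucin that endothelium also makes, averaged 10.51 ± 0.03, while the other 5 lay between 6.32 and 7.74 on average. All 9 endothelial markers were bright, with a median of 9.06 and Emcn, an endothelial sialomucin, highest at 11.05 ± 0.06. Of 12 immune markers, 4 were bright, and they were led by the antigen presentation genes H2-Aa (10.82 ± 0.11) and Cd74 (10.36 ± 0.16). The pan-leukocyte Ptprc averaged 6.67 ± 0.11 and the T cell gene Cd3e 6.71 ± 0.10. Stromal markers were bright in 2 of 9, Acta2 at 9.44 ± 0.05 and Dcn at 9.17 ± 0.24.

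Tissues next to the cortex gave few signals, where 31.2% of all genes were bright. Bright members numbered 0 of 3 measured for inner medulla and thin limb, 0 of 5 for urothelium, 0 of 6 for adrenal gland and 0 of 5 for skeletal muscle, with medians of 5.5, 5.76, 4.72 and 6.24. Of 6 markers of fat, only Fabp4, which endothelium also makes, was bright, at 8.63 ± 0.08. Adipoq, which defines fat cells, averaged 4.37 ± 0.19. Of 7 liver markers 3 were bright, and Ttr, the thyroxine carrier transthyretin, stood out with 11.38, 11.47, 11.57 and 12.08. Alb, the main liver marker, gave 8.25, 8.01, 8.01 and 8.67, and the fibrinogen chain genes Fga and Fgb averaged 5.98 each. Ttr and Alb were highest on WT 4, whereas Apoa1, Apoc3, Fga and Fgb were lowest there.

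Among the functions, gluconeogenesis and uptake of filtered protein had the highest median signals of the transport and fuel lists tested. Of 6 genes of gluconeogenesis, 5 were bright, with a median of 12.11, and the exception was Fbp2, the muscle form of the bisphosphatase, at 7.14. G6pc, which releases free glucose, gave 12.89, 13.05, 13.05 and 13.05. Endocytosis and lysosomal breakdown of protein had 11 of 11 genes bright and a median of 12.05, with Dab2, an adaptor of megalin, at 12.42 ± 0.08. Fatty acid oxidation had 17 of 17 bright (median 10.76), the citric acid cycle 16 of 16 (11.58) and the nuclear genes of the respiratory chain 19 of 19 (11.72). Acadm and Hadh, enzymes of the oxidation spiral, averaged 12.51 ± 0.11 and 13.10 ± 0.03, and Idh3g, a subunit of isocitrate dehydrogenase, 12.74 ± 0.08. The share of bright genes over all genes was 31.2%, and these lists were chosen as known kidney functions.

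**Figure D2:**
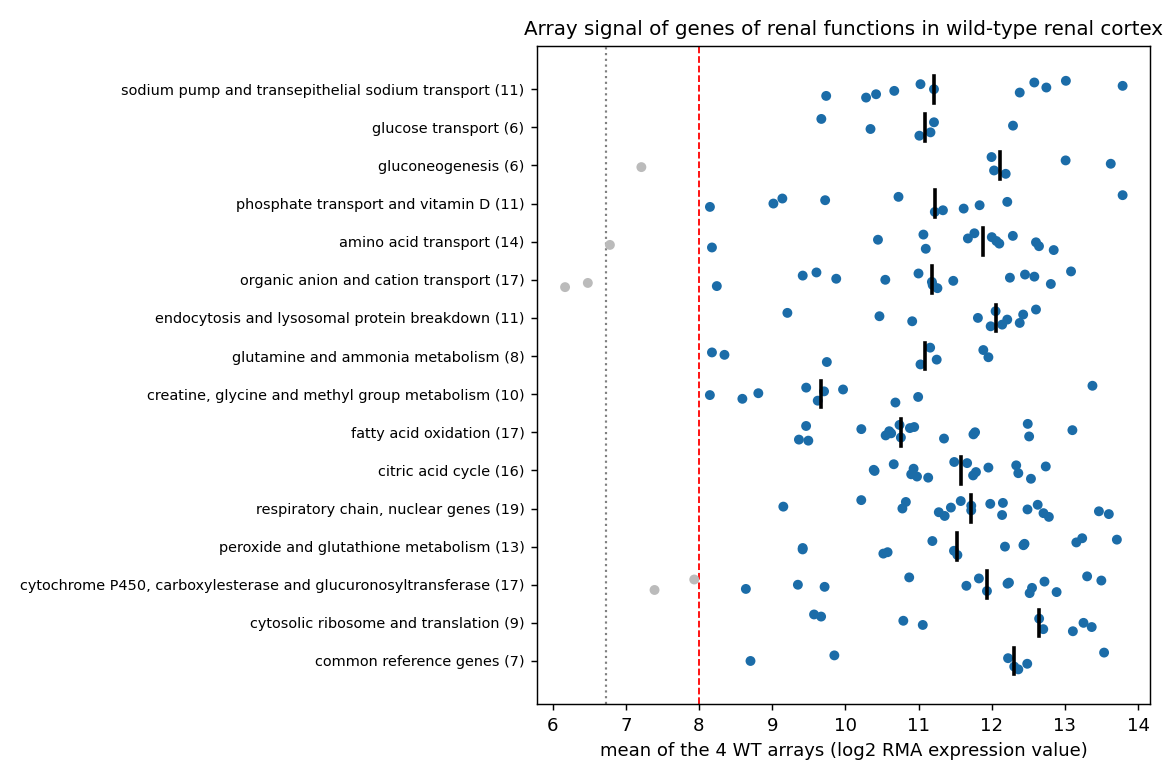
Each point is 1 gene, placed by its mean log2 RMA expression value over the 4 WT arrays; rows are function lists with the number of genes measured in brackets, blue points are bright, the black bar is the list median, the red line is at 8 and the dotted line at 6.73, the median of all genes. Grey points, which mark genes that were not bright, occur in 4 of the 16 lists drawn.

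Transporters of each solute class on the lists were bright in most members. All 11 measured genes of sodium transport were bright (median 11.21), among them Atp1b1, the beta subunit of the sodium pump (13.01 ± 0.03), and Slc4a4, the basolateral bicarbonate exit path of the proximal tubule (12.75 ± 0.04). All 6 glucose transport genes were bright. Of these, Slc5a10, a sodium-coupled transporter of mannose and fructose, gave 12.42, 12.46, 12.40 and 11.88, and Slc5a2, which recovers most filtered glucose, averaged 11.24 ± 0.15. Amino acid transport had 13 of 14 genes bright (median 11.88), led by Cltrn, the collectrin that carries transporters to the brush border (12.86 ± 0.05). Organic anion and cation transport had 15 of 17 bright (median 11.18). Slc47a1, which extrudes organic cations into urine, averaged 12.81 ± 0.01, and Slc22a8, which takes up organic anions from blood, 12.58 ± 0.08.

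Phosphate and vitamin D handling had 11 of 11 genes bright. Kl, the coreceptor klotho for the phosphate hormone of bone, averaged 12.22 ± 0.03, and Pth1r, the parathyroid hormone receptor, 11.83 ± 0.02. Vdr, the vitamin D receptor, averaged 11.63 ± 0.12. Glutamine and ammonia metabolism had 8 of 8 bright, with Ogdh at 11.96 ± 0.04, Glul, the glutamine synthetase, at 11.84 ± 0.16 and Rhcg, an ammonia channel, at 11.27 ± 0.09. Peroxide and glutathione metabolism had 13 of 13 bright (median 11.53). Oxidative drug and lipid metabolism had 15 of 17 bright (median 11.94), led by Cyp4b1 (13.50 ± 0.04) and Cyp2e1 (13.31 ± 0.03), both higher in male than in female mouse kidney.

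Lists of injury and cell division had medians of 6.44 and 6.86, near the median of 6.73 over all genes. Tubular injury genes were bright in 2 of 10, the keratin Krt8 (10.04 ± 0.26) and the chaperone Clu (10.38 ± 0.15), where the share over all genes was 31.2%. Havcr1 and Lcn2, classical injury markers of the tubule, averaged 5.34 ± 0.03 and 6.07 ± 0.27. Cell cycle genes were bright in 1 of 9, Ccnd1 at 11.11 ± 0.29, and the proliferation marker Mki67 averaged 6.78 ± 0.15. Interferon response genes were bright in 3 of 8 and immediate early genes in 5 of 21, shares of 37.5% and 23.8% that lie near that over all genes. Hypoxia response genes were bright in 6 of 12 and heat shock genes in 6 of 7, the latter led by the constitutive chaperone Hspa8 (13.11 ± 0.08). Among the hypoxia genes, Ndrg1, a stress-responsive gene, averaged 13.36 ± 0.09, and Car9 averaged 7.27 ± 0.43.

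Most bright genes varied little between arrays. The median range, the highest minus the lowest of the 4 values, was 0.18 over bright genes and 0.22 over all genes, and the 95th percentile over bright genes was 0.45. A range of at least 1 was seen in 25 bright genes, or 0.402% of them. The share fell with level, from 16 of 2613 genes between 8 and 9 to 7 of 1838 between 9 and 10 and 2 of 995 between 10 and 11. Above 11 it was 0 of 779 genes. The largest ranges there were 0.94 for Slc2a5, the fructose transporter of the late proximal tubule, and 0.94 for Pck1, the cytosolic carboxykinase that commits carbon to glucose. With WT 1, WT 2, WT 3 or WT 4 left out, the count was 13, 21, 24 or 18. WT 2 and WT 3 were close to each other, so leaving out either kept the other. They were not left out together, so the counts do not show which sample mattered most.

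**Figure D3:**
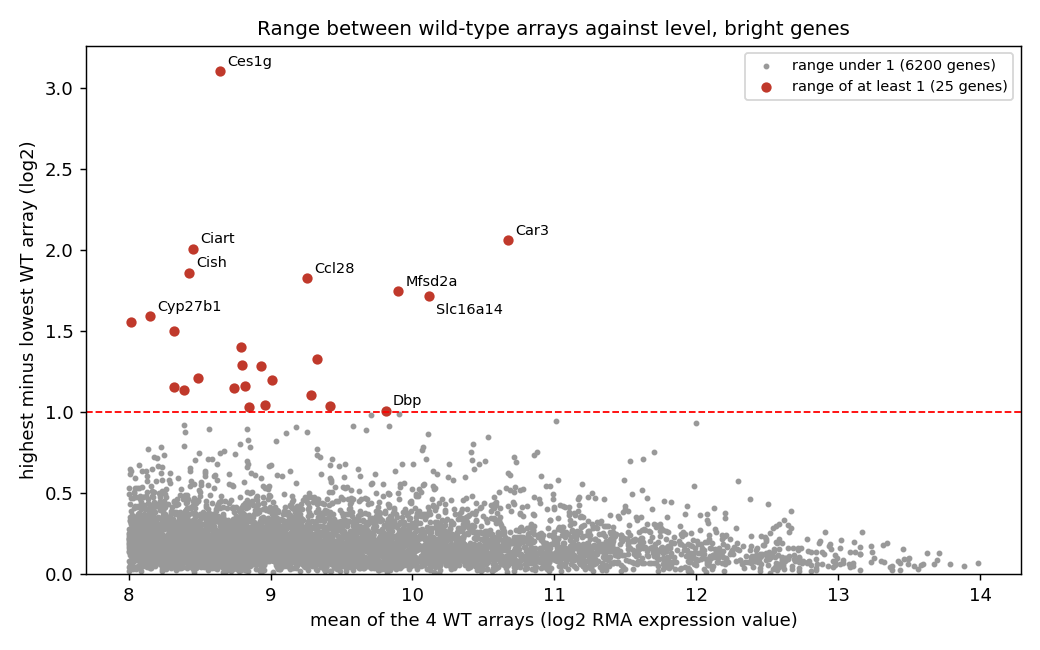
Each point is 1 of the 6225 bright genes, with its mean log2 RMA expression value over the 4 WT arrays on the x axis and its highest minus lowest WT value (log2) on the y axis. The 25 genes at or above the red line, a range of 1, lie at means between 8 and 11, and the largest range is that of Ces1g (3.11).

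The 25 genes did not follow a single array. The sample farthest from the other samples was WT 1 in 8 genes, WT 4 in 7, and WT 2 with WT 3 in 10, where over all bright genes the shares were 44.4%, 30.7% and 24.9%. WT 2 and WT 3 lay below both other arrays in 12 of the 25 genes, between them in 7 and above both in 6. Over all bright genes these positions held in 17.1%, 59.4% and 23.5%. The 25 genes lay on 14 chromosomes, with 0 pairs within 1 Mb of each other, and 21 of them had a single probe set. Genes just inside the threshold were Azgp1 (1.04) and Dbp (1.01), and just outside it were Mir568 (0.99) and Anp32a (0.98).

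**Figure D4:**
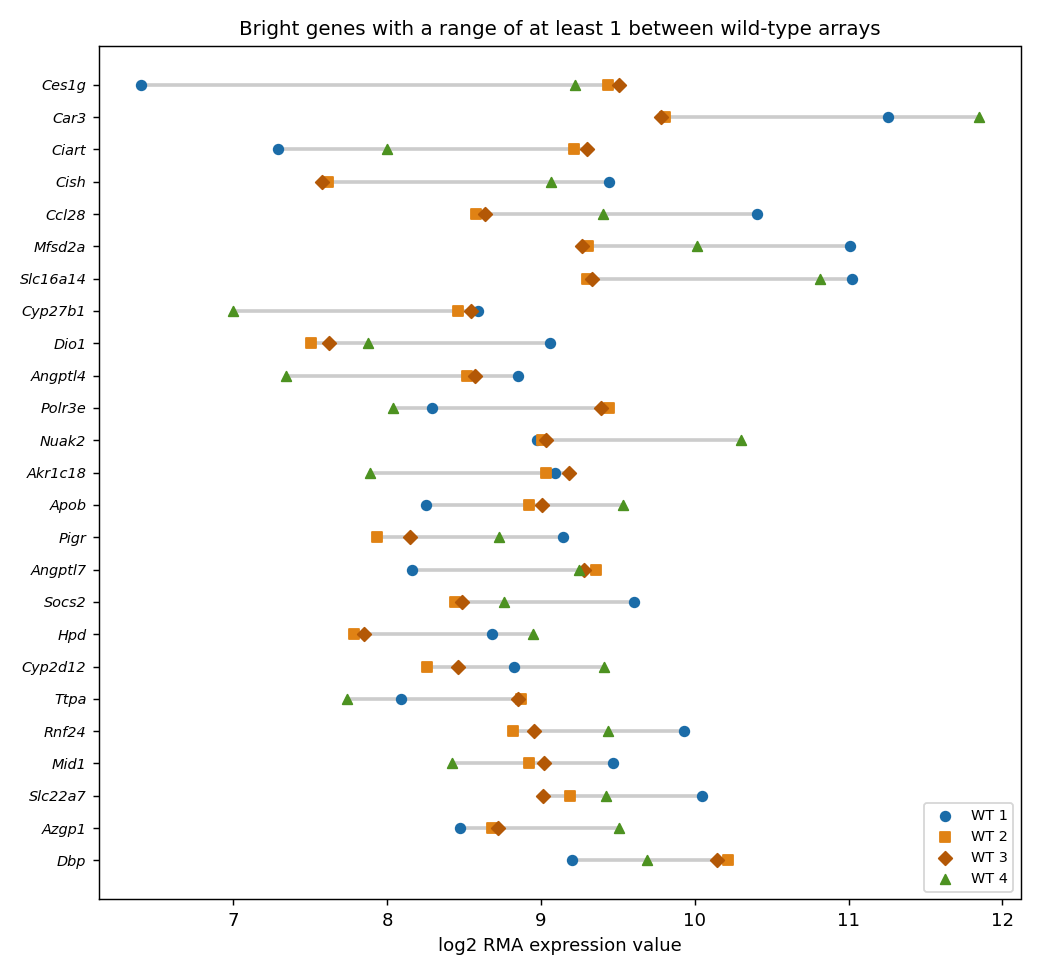
Log2 RMA expression values on each WT array (symbols) of the 25 bright genes with a range of at least 1, sorted by range; the grey bar joins the lowest and the highest array. Ces1g is low on WT 1, Cyp27b1, Angptl4 and Akr1c18 are low on WT 4, and Car3, Cish and Slc16a14 are low on WT 2 and WT 3.

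Of the 12 response lists, the circadian clock had the most genes with a range of at least 1, bright or not: 4 of 16, beside 62 of all 19938 genes. In this clock, CLOCK and BMAL1 (encoded by Arntl) switch on the Per and Cry repressors, Ciart and the output factor Dbp through E-boxes, and the REV-ERB receptors Nr1d1 and Nr1d2 repress Arntl and Nfil3. Of the clock genes measured 8 were bright, and 2 of the 8, Ciart and Dbp, had a range of at least 1. The list median of the range was 0.60, beside 0.22 over all genes. Ciart, a repressor of CLOCK and BMAL1, gave 7.29 on WT 1, 9.21 on WT 2, 9.30 on WT 3 and 8.0 on WT 4, so WT 2 and WT 3 were high and WT 1 was lowest. A further probe set of Ciart gave 7.10, 8.08, 7.89 and 6.78, again high on WT 2 and WT 3. Dbp gave 9.20, 10.21, 10.14 and 9.69, with the same 2 arrays highest. The 3 Per genes had this order as well. Per1 gave 7.51, 8.18, 8.50 and 7.73, Per2 gave 7.08, 7.74, 7.82 and 7.62, and Per3 gave 7.13, 7.71, 7.86 and 7.53. Arntl and Nfil3 were lowest on these arrays, and so, over much smaller ranges, were Clock (0.18), Cry1 (0.18) and Bhlhe40 (0.31).

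Arntl, the activator whose peak is opposite in phase to that of the Per genes, gave 6.78, 5.69, 5.94 and 6.54. Nfil3, a repressor that competes with Dbp, gave 7.10, 6.04, 6.29 and 6.94. Both were lowest on WT 2 and WT 3, highest on WT 1, and ranged over 1.09 and 1.05, but neither was bright. Other members moved less: Nr1d2 ranged over 0.47, Nr1d1 over 0.24, and Clock, whose transcript is nearly constant over the day, gave 9.62, 9.45, 9.44 and 9.60. Nr1d1 gave 11.22, 11.36, 11.31 and 11.12. Its highest arrays were again WT 2 and WT 3. Without WT 1, the range of Dbp was 0.53 and that of Ciart 1.30. With WT 2 and WT 3 averaged first, that of Dbp was 0.97.

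The promoters of this group are shown because most of its genes were either highest or lowest on WT 2 and WT 3. Windows of 300 bases around the start, 250 before and 50 after, were taken from RefSeq (GRCm38.p6), and positions are counted from 1 at the start, with the base before it at -1. Of the 16 clock genes 14 had at least 1 window. The E-box CACGTG, which reads the same on both strands, was present in the windows of 5 of them: Bhlhe41, Ciart, Cry1, Per1 and Tef. Counted by window, it was present in 6 of the 19 windows of the clock genes. Of these, Cry1 was lowest on WT 2 and WT 3, where Ciart and Per1 were highest. The windows of Dbp and Per3 held 0 E-boxes, and Per2 had no window. Of all 32851 windows 7.15% held at least 1 E-box and 0.0883% held 3 or more. The window of Ciart held 3, at -116 to -111, -58 to -53 and -44 to -39, and 1 of the 2 windows of Per1 held 1, at -166 to -161. The 250 bases before the start of Ciart (chr3:95882229-95882478, minus strand) and of Per1 (chr11:69098699-69098948, plus strand) read as follows, with E-boxes in capitals.
Ciart: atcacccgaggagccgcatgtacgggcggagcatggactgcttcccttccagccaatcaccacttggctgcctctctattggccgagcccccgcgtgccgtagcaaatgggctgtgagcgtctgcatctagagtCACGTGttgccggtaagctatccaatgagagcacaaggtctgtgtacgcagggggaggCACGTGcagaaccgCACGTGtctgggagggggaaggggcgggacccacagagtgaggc
Per1: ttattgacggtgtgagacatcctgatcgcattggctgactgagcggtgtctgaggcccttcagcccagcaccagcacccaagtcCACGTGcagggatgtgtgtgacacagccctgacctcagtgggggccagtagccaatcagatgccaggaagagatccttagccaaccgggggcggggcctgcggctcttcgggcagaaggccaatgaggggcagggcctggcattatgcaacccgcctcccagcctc
The sequence TAGGTCA, the preferred site of REV-ERB and ROR receptors, was searched on both strands and occurred in 2.61% of all windows. Among the clock genes it was found in Arntl, at 31 to 37, and on the other strand in Nfil3, at -12 to -6. Clock and Cry1, which were also lowest on WT 2 and WT 3, had no match in their windows, and Bhlhe40 had no window. The stretch of Arntl (chr7:113207530-113207558, plus strand) has the match in capitals.
Arntl: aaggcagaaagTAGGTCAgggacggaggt
These matches describe letters in the window and do not show binding.

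**Figure D5:**
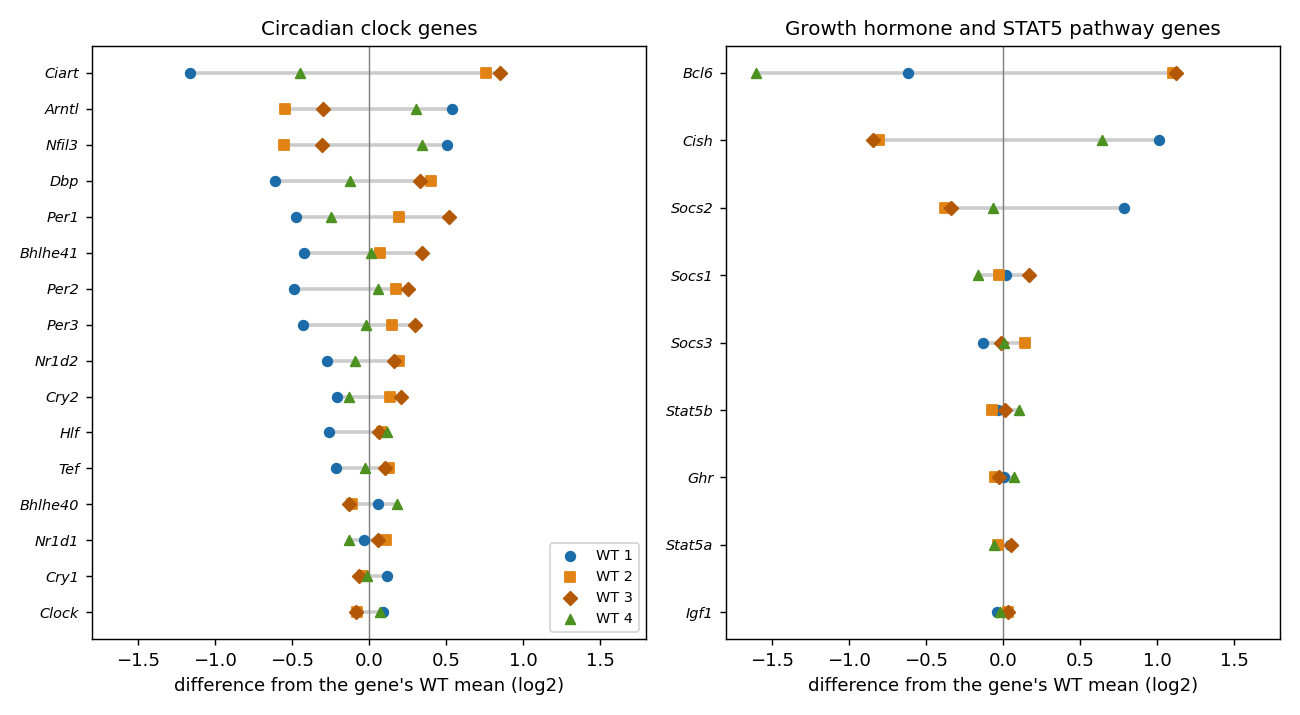
Difference of each WT array from the gene's mean over the 4 arrays (log2; symbols are arrays) for 16 circadian clock genes (left) and 9 genes of the growth hormone and STAT5 pathway (right), sorted by range. On the left, WT 2 and WT 3 lie above WT 1 in Ciart, Dbp and the Per genes and below it in Arntl and Nfil3; on the right, Cish and Socs2 are low and Bcl6 is high on WT 2 and WT 3.

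In growth hormone signalling, Cish and Bcl6 set WT 2 and WT 3 apart from the other arrays, while Socs2 differed most on WT 1. In Socs1 and Socs3, WT 2 and WT 3 lay neither both below nor both above the others. Growth hormone, released in pulses, acts through its receptor Ghr and the transcription factor STAT5, which switches on Cish and Socs2, inhibitors of the same receptor, and represses Bcl6. Cish gave 9.44 on WT 1, 7.62 on WT 2, 7.58 on WT 3 and 9.07 on WT 4, a range of 1.86. Socs2 gave 9.60, 8.44, 8.48 and 8.76, and its other probe set gave 7.96, 7.10, 7.21 and 7.33. Both genes were lowest on WT 2 and WT 3 and highest on WT 1. Bcl6, a transcriptional repressor just under the brightness limit on average, gave 7.32, 9.04, 9.06 and 6.33, the reverse order except that WT 4 was its lowest array. This pathway list was written after these values had been seen. The other members ranged less: Ghr averaged 12.25 ± 0.06, with ranges of 0.12 for Ghr, 0.18 for Stat5b, 0.11 for Stat5a, 0.33 for Socs1, 0.27 for Socs3 and 0.07 for Igf1. Without WT 1, the range of Socs2 was 0.32 and that of Cish 1.49.

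The STAT palindrome TTCNNNGAA, which matches on both strands alike, was sought in the same windows. It occurred at least once in 8.30% of all windows, at least 2 times in 0.457% and at least 3 times in 0.0335%. The window of Cish held 2, at 1 to 9 and 12 to 20, and 1 of the windows of Bcl6 held 3, at -168 to -160, -122 to -114 and -88 to -80. Socs2 had no window in the table. The stretch of Cish (chr9:107296655-107296682, plus strand) and the 250 bases before that start of Bcl6 (chr16:23981284-23981533, minus strand) are shown with the palindromes in capitals, because these 2 genes moved in opposite directions on WT 2 and WT 3.
Cish: agttTTCCTGGAAagTTCTTGGAAatct
Bcl6: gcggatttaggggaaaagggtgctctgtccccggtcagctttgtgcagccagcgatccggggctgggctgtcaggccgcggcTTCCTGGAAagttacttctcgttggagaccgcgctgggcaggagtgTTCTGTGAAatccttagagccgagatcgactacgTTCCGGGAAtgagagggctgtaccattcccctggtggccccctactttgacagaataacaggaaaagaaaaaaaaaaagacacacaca
The palindromes were thus present in both genes, whichever way the gene moved. Windows of the clock genes Dbp, at -99 to -91, and Per1, at -210 to -202, also held this palindrome. Another window of Bcl6 held an E-box at -60 to -55.

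Among bright genes, the 2 largest ranges were those of Ces1g and Car3. Ces1g, a carboxylesterase that breaks down lipid esters and many drugs, gave 6.40 on WT 1 against 9.44, 9.51 and 9.22, and without WT 1 its range was 0.29. The other measured carboxylesterases of the same family, Ces1d, Ces1e and Ces1f, ranged over 0.47, 0.08 and 0.14. Car3, a carbonic anhydrase abundant in fat, muscle and male liver, gave 11.25, 9.81, 9.78 and 11.85, so that WT 2 and WT 3 were low by more than 1. Beside it, the mean of 6 fat markers was 5.89, 5.73, 5.67 and 5.76, with Adipoq at 4.56, 4.18, 4.17 and 4.36, and the mean of 5 muscle markers was 5.83, 5.93, 5.78 and 5.79. Adipoq and the muscle markers were thus not bright on any array, and the part of such tissue in Car3 was not tested. Mfsd2a, which carries lysophospholipids and is induced by fasting, gave 11.01, 9.30, 9.27 and 10.01. Without WT 1 its range was 0.75.

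Among genes that respond to fasting through the receptor PPARA, 3 of the 13 measured had a range of at least 1. Over all 19938 genes, bright or not, 62 had such a range. Of the 3 fasting genes, only Angptl4 was bright. Angptl4, a secreted inhibitor of lipoprotein lipase, gave 8.85, 8.52, 8.57 and 7.34 and was low on WT 4, and without WT 4 its range was 0.33. Pdk4, which blocks the entry of pyruvate into the citric acid cycle, gave 8.87, 7.13, 7.32 and 6.92 and was high on WT 1. Cyp4a14, a fatty acid hydroxylase, gave 8.55, 7.90, 7.99 and 7.31, highest on WT 1 and lowest on WT 4. All 3 had the order WT 1, WT 3, WT 2, WT 4 from highest to lowest, and the mean over the 13 genes was 9.17, 8.91, 8.92 and 8.76. Cpt1a, Plin2 and Cyp4a10, also targets of PPARA, ranged over 0.07, 0.06 and 0.11. Pck1, induced by fasting, acidosis and glucocorticoids, gave 12.43, 11.52, 11.58 and 12.46.

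Apob, the structural protein of secreted lipoproteins, gave 8.25, 8.92, 9.01 and 9.54. Azgp1, a secreted lipid-mobilising glycoprotein, gave 8.47, 8.68, 8.72 and 9.51. WT 4 was highest for both. The other apolipoproteins measured on the liver list, Apoa1, Apoa2 and Apoc3, ranged over 0.32, 0.11 and 0.20. Without WT 4, the range of Apob was 0.76 and that of Azgp1 0.25. Akr1c18, which inactivates progesterone, gave 9.09, 9.03, 9.18 and 7.89, and was low on WT 4 with a range of 0.15 among the other arrays. Dio1, the deiodinase that activates thyroid hormone, gave 9.06, 7.5, 7.62 and 7.88, and was high on WT 1 with a range of 0.37 among the others.

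The phosphate and vitamin D list had 1 gene with a range of at least 1: Cyp27b1, the mitochondrial enzyme that makes active vitamin D. It gave 8.59, 8.46, 8.55 and 7.0, and among WT 1 to WT 3 its range was 0.13. No other measured gene of the phosphate and vitamin D list reached a range of 1: Kl ranged over 0.08, Pth1r over 0.07, Vdr over 0.23 and Slc34a3, another renal phosphate cotransporter, over 0.27. Cyp24a1, which degrades active vitamin D, is not analysed here. Slc16a14, a member of the monocarboxylate transporter family, gave 11.02, 9.30, 9.33 and 10.81, with WT 2 and WT 3 low. Slc22a7, a basolateral organic anion transporter, gave 10.05, 9.19, 9.01 and 9.42, and without WT 1 its range was 0.41.

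The 6 glucose transport genes stayed under a range of 1, and 3 of them shared an order. Slc2a5 gave 10.81, 11.43, 11.33 and 10.48, and Slc5a1, the high-affinity glucose cotransporter of the late proximal tubule, gave 9.64, 10.02, 9.91 and 9.13. Slc2a2, the basolateral glucose carrier, gave 11.05, 11.35, 11.29 and 10.96. In each of these 3 genes WT 2 and WT 3 were highest and WT 4 was lowest. The other 3 did not: Slc5a2 was highest on WT 1 (11.41, 11.15, 11.11 and 11.17), Slc2a1, the basolateral carrier of more distal segments, was highest on WT 4 (10.28, 10.34, 10.28 and 10.48), and Slc5a10 was lowest on WT 4 with WT 1 above WT 3. The mean over the 6 glucose transport genes was 10.94, 11.13, 11.05 and 10.68.

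In a list of mucosal immunoglobulin transport, also written after the values had been seen, the 3 bright genes had WT 2 and WT 3 below both other arrays. So had 17.1% of all bright genes and 12 of the 25 with a range of at least 1. Ccl28, a chemokine that draws plasma cells to mucosa, gave 10.41, 8.58, 8.64 and 9.41, with WT 1 farthest from the others. Pigr, the receptor that carries polymeric immunoglobulin across epithelium, gave 9.15, 7.93, 8.15 and 8.73. Fcamr, a receptor of IgA and IgM that neighbours Pigr in the genome, gave 9.64, 8.78, 8.93 and 9.66. All 3 were lowest on WT 2 and WT 3, the arrays on which Arntl, Nfil3, Cish and Socs2 were also lowest. Without WT 1, the range of Ccl28 was 0.83 and that of Pigr 0.80. Beside them, the mean of the 3 measured plasma cell markers was 6.00, 6.07, 5.98 and 6.02. Among these, the joining chain Jchain, also on the mucosal list, gave 5.29, 5.13, 5.15 and 5.35, lowest on WT 2 and WT 3 as well but not bright. Ccr10, the receptor of Ccl28, averaged 5.61 ± 0.03.

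The remaining variable genes had mixed functions. Nuak2, a kinase related to the energy sensor AMPK, gave 8.97, 9.01, 9.03 and 10.30, high on WT 4, and without WT 4 its range was 0.06. Angptl7, a secreted angiopoietin-like protein, gave 8.16, 9.36, 9.28 and 9.25, low on WT 1, and without WT 1 its range was 0.11. Hpd, an enzyme of tyrosine breakdown, gave 8.68, 7.79, 7.85 and 8.95, and Ttpa, the vitamin E transfer protein, gave 8.09, 8.87, 8.85 and 7.74. These 2 genes had opposite orders, and both probe sets of Ttpa were high on WT 2 and WT 3. Cyp2d12, Rnf24 and Mid1 had ranges of 1.15, 1.11 and 1.04. Polr3e, a subunit of RNA polymerase III, ranged over 1.40 on the probe set used and over 0.10 on its other probe set, so the 2 readings of this gene differ.

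A further 12 genes had a WT mean of 8 or less but exceeded 8 on their highest array and had a range of at least 1. They include Bcl6, Pdk4 and Cyp4a14 above. The widest was AI506816, a locus without a gene name, with 7.32, 8.72, 9.24 and 5.84, a range of 3.41. Aldh1a7, an aldehyde dehydrogenase, gave 5.99, 8.26, 8.13 and 7.75, low on WT 1. Id3, an inhibitor of basic helix-loop-helix factors, gave 7.02, 7.68, 7.63 and 8.45, high on WT 4. Ptgds, a prostaglandin D synthase, gave 8.81, 7.59, 7.79 and 7.22, high on WT 1. These genes were chosen after their values had been seen.

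By contrast, genes used as common references were steady. The 7 measured, among them Actb, Hprt, Ppia and Tbp, had a median range of 0.08 and a largest range of 0.23, for B2m. The markers of proximal tubule had a median range of 0.08 and those of endothelium 0.14. The widest medians among the cell type lists were those of type A and type B intercalated cells, at 0.53 and 0.51, and the other cell type lists had medians up to 0.32. Slc4a1 gave 8.61, 9.21, 9.09 and 8.80 and Aqp6 gave 8.27, 8.90, 9.01 and 8.82, while Slc4a9 gave 10.44, 9.95, 9.91 and 10.30. The list means were 7.45, 7.68, 7.62 and 7.60 for type A and 9.04, 8.74, 8.79 and 9.0 for type B. The members did not all follow these: the type A gene Kit gave 7.65, 7.32, 7.17 and 7.44 and Slc26a7 ranged over 0.13, while the type B gene Slc26a4 gave 9.26, 9.16, 9.32 and 9.60.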

How the data were processed

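Total RNA of kidney cortex from 4 wild-type mice was hybridised to Affymetrix arrays. For the deposited log2 values, 1 per probe set and array, the submitters' processing notes name the RMA method and the software Affymetrix Expression Console; the version, filters and genome build are not given in the sources used here. RMA corrects for background, brings arrays to a common distribution and combines the probes of a set, which compresses differences near the low end of the scale. Of 35556 probe sets, the platform annotation gave 1 symbol to 21789, several to 1621 and none to 12146, and only the first kind was used. Of the 19938 genes, 19856 matched the RefSeq gene table. There were 0 missing values.

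Only WT arrays were used, with no test, because there is a single group. Means ± SD and ranges (highest minus lowest array) were computed in Python 3.11.15 with pandas 2.3.3 and NumPy 2.4.6 by code tested on simulated data. The mean of the 4 arrays decided brightness, and WT 2 and WT 3 were averaged first for mean ± SD (n = 3). The number of separate mice limits the precision. Named genes were the 40 with the highest mean, the 40 bright genes with the largest range, up to 4 brightest members of each of 53 lists (24 of cell types, 17 of functions, 12 of responses) with members of range at least 1, and 10 fixed markers; further genes were named with their values already known. A further 4 lists were written after values were seen. The members and lists were chosen with earlier results of these data known. The list of mitochondrial symbols matched 0 genes. Alternatives were the mean of all probe sets, centring, another quantile normalization, other thresholds and leaving out each array.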

Additional observations from a re-analysis of the deposited data

How the results depend on the processing

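No paired analysis was possible because a single group was described. The count of 25 bright genes with a range of at least 1 ran from 13 to 24 when 1 array was left out, and it was 23 with a gene's probe sets averaged, 25 with arrays centred on their median, 24 after a further quantile normalization and 23 with WT 2 and WT 3 averaged first. It moved with the thresholds: 41 genes with a WT mean above 7, 9 above 9, 62 with no filter on low values and 133 with a range of at least 1.5-fold. With an SD of at least 0.5 it was 22, and with the highest array above 8, a setting chosen after seeing the data, 37. Without WT 1, 12 of the 25 genes were kept, and without WT 4, 15. With probe sets averaged, Ciart left the count because its mean was no longer above 8, and Polr3e because the range of Polr3e was then 0.72. The number of bright genes was 3612 with a mean above 9, and 6209 to 6242 with 1 array left out. Over all settings that apply to single values, 309 of 320 gene means and 186 of 200 gene ranges moved by less than the spread between samples. The same held for 441 of 448 list medians of level and 425 of 448 list medians of range. The cause of the other moves was not tested. For the gene ranges this limit was loose, because it was the SD of genes chosen for their wide range. No background signal was used, so dim genes have no stated floor.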
